A study of Caenorhabditis elegans with 2 samples.

Results

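Small nucleolar RNA (snoRNA) genes were among the places where the tagged zinc-finger protein ODD-2 gave its strongest ChIP-seq signal in Caenorhabditis elegans embryos. Of 346 nuclear snoRNA genes in the Ensembl annotation of WBcel235, 116 (33.5%) had the summit of a pooled candidate region inside the gene or within 200 bp of it, with no tRNA gene within 200 bp of that summit. These 116 genes are the members described here. They were chosen by the position of pooled summits, and so by the ChIP signal itself, and the summits lay in 114 regions. For 37 members the region was also in the authors' IDR set of 260 peaks, which passed the irreproducible discovery rate threshold, and these are called IDR members. The other 79 are called other members. The remaining 230 snoRNA genes had no candidate region under the rule, and 1 of them, M163.14, was left out by its tRNA neighbour alone.

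The study holds 1 group of 2 biological replicates, with no second condition. Late embryos of hermaphrodites of strain OP405 carried the unc-119(tm4063) III allele and the transgene wgIs405, which expresses ODD-2 with a GFP-FLAG tag at its C-terminus. Chromatin of whole animals, not of 1 cell type, was sonicated and precipitated with an antibody against GFP. ODD-2 belongs to the Odd-skipped family of zinc-finger transcription factors. The files list 30000 candidate regions per replicate and 30000 from the pooled data, each with a signal set against a control by the authors and a summit, the position of strongest enrichment. The authors label the pooled list as peaks and background, the input to the IDR step. A candidate region outside the IDR set can therefore be background. Read depth is unknown, because no read numbers are given, and no library of untagged worms was analysed here. Signal without the tagged protein was therefore not measured. With 1 group there is no comparison over samples, so no test was run, and intervals on shares of genes are exact Clopper-Pearson 95% intervals that cover counting error only.

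snoRNAs guide the chemical modification of other RNAs, chiefly ribosomal RNA. C/D box snoRNAs carry a C box near the 5' end and a D box (CTGA in the gene) near the 3' end, and guide ribose methylation. H/ACA snoRNAs end shortly after the letters ACA and guide pseudouridylation. Many worm snoRNA genes lie in introns of protein-coding genes and are released from the host transcript, while others have promoters of their own. tRNA genes are transcribed by RNA polymerase III from an A box and a B box inside the transcribed sequence, which the factor TFIIIC binds, and a run of T ends that transcription.

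An A box followed by a B box on the gene's strand was found before 19 of the 37 IDR members. Of the 12 such genes among the 20 members of highest pooled signal, 9 are printed here to show how the boxes sit before the gene. Each line runs 5' to 3' on the gene's strand from 100 bases before the annotated 5' end to 10 bases inside the gene, in RefSeq's WBcel235 genome, and the capitals mark the A box and then the B box (GTTCNA). The windows are chrV:12303608-12303717 on the plus strand, chrV:15873917-15874026 on the minus strand, chrV:11314158-11314267 (plus), chrII:11960798-11960907 (plus), chrV:19643178-19643287 (minus), chrIII:8937667-8937776 (plus), chrII:10840217-10840326 (plus), chrII:5105222-5105331 (minus) and chrIV:2408626-2408735 (minus), in the order of the lines.
C51F7.3: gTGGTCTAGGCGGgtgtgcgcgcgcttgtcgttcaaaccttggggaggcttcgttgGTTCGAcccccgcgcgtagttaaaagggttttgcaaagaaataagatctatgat
T06C12.16: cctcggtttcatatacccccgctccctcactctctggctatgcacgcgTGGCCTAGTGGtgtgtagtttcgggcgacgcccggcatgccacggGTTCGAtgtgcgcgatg
T03F7.8: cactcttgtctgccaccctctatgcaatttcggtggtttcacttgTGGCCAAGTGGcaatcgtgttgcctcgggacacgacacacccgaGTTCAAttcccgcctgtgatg
W03C9.9: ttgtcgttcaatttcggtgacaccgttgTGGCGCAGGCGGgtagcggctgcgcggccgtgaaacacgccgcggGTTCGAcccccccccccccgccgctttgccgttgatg
Y43F8C.22: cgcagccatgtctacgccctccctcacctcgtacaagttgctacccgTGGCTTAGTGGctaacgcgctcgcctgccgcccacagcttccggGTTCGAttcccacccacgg
ZK643.9: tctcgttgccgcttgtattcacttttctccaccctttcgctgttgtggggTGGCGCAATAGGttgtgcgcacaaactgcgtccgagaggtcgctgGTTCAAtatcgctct
M106.6: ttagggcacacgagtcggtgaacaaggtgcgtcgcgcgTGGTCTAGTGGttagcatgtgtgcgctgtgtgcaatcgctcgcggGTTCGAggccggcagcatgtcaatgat
C04G6.12: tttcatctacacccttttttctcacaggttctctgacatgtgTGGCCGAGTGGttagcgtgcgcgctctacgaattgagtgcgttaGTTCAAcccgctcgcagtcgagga
Y38F2AR.14: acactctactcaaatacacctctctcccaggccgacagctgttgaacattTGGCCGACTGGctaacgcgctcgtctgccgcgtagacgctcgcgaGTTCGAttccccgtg

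In 4 of the 9 genes the B box starts within 10 bases of the gene. C51F7.3 has the widest layout, with its A box 99 bases and its B box 44 bases before the 5' end. A further GTTCAA lies between these boxes in lower case. Over the 19 IDR members with the pair, the A box started 46 to 99 bases before the 5' end, with a median of 58, and the B box 5 to 44 bases before it, with a median of 14. The start of the A box and the start of the B box were 36 to 55 bases apart, with a median of 45, and 15 of the 19 pairs were 43 to 46 bases apart. Inside nuclear tRNA genes the same pair was found in 538 of 612, with a median distance of 44 bases.

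**Figure D1:**
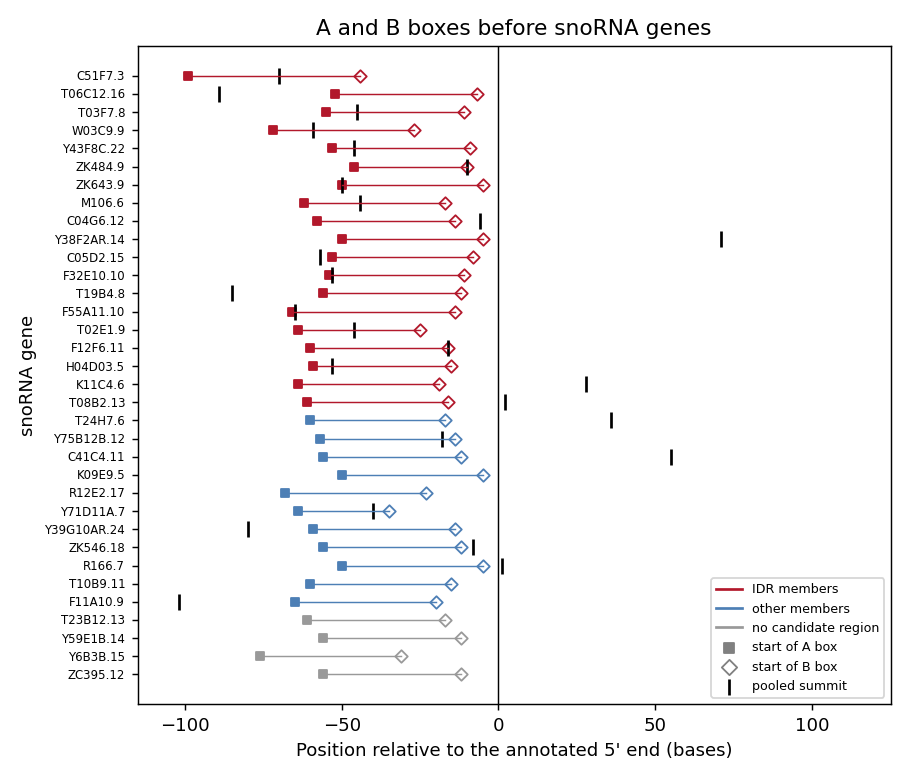
Start positions of the A box (filled squares) and the B box (open diamonds), in bases from the annotated 5' end, for the 34 snoRNA genes that hold the pair before it, and the pooled summit of each member (black ticks; 3 summits lie beyond the axis). The boxes of 19 IDR members, 11 other members and 4 genes without a candidate region sit at like positions, and the summits of the IDR members mostly lie before the 5' end.

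The pair was found before 19 of 37 IDR members (51.4%, interval 34.4 to 68.1), 11 of 79 other members (13.9%, 7.16 to 23.5) and 4 of 230 snoRNA genes without a candidate region (1.74%, 0.476 to 4.39). Before protein-coding genes, searched in the same window, it was found at 41 of 19973 (0.205%). The exact intervals of the 3 snoRNA groups do not overlap. Read the other way, 30 of the 34 snoRNA genes with the pair were members (88.2%, 72.5 to 96.7) and 19 were IDR members (55.9%). Of the 312 without it, 86 were members and 18 were IDR members (5.77%). Genome sequence took no part in the choice of members, but the letters of the patterns were settled after such sequences had been seen, so these shares are descriptions. Searched for alone, the A box stood before 73% of IDR members, 19% of other members, 6.09% of snoRNA genes without a candidate and 2.27% of protein-coding genes. The B box word GTTCNA alone, in the 200 bases before the 5' end, was less specific, at 54.1%, 31.6%, 19.1% and 19.3% of the same groups.

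The 4 genes with the pair and no candidate region were T23B12.13, Y59E1B.14, Y6B3B.15 and ZC395.12. Their nearest pooled summits lay 550, 1597, 1772 and 4375 bp away. Their boxes were spaced 44 to 45 bases apart, like those of the members. The boxes were therefore also present at a few genes without a listed region.

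The bases after the gene were searched for a run of T. Which polymerase transcribes these genes was not tested. A run of TTTT within 20 bases after the annotated 3' end was found at 32 of 37 IDR members (86.5%, 71.2 to 95.5), 32 of 79 other members (40.5%) and 81 of 230 snoRNA genes without a candidate (35.2%). It followed 98.4% of nuclear tRNA genes, 40.3% of protein-coding genes and 25.7% of windows tiled over the genome. In this window the other members were at the level of protein-coding genes. Within 50 bases the shares were 94.6% of IDR members, 74.7% of other members and 63.9% of genes without a candidate, so the groups were closer together. For TTTTT the shares were 62.2% in IDR members, 20.3% in other members and 13.5% in genes without a candidate, against 11.8% of genome windows. The pair and TTTT together were found at 32 snoRNA genes, of which 29 (90.6%) were members. Neither was found at 199, of which 51 (25.6%) were members and 4 were IDR members.

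T06C12.16, a C/D box gene outside any protein-coding gene, shows the whole arrangement. The line is the gene and 20 bases after it, chrV:15873835-15873926 on the minus strand in RefSeq's WBcel235 genome, and the capitals mark GATGA of the C box, CTGA of the D box and the T run.
T06C12.16: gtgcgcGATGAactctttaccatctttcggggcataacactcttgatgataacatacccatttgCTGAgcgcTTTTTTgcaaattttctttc

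A single base separates the B box printed above from the 72 bases of the gene, and the T run starts after the D box. The pooled signal of its region was 224.9, with 111.6 in replicate 1 and 114.5 in replicate 2. The summit lay 89 bases before the 5' end in the pooled file, 87 in replicate 1 and 53 in replicate 2. Both replicates thus placed it before the gene. The A box starts 52 bases before the 5' end, so the summit of replicate 2 was at its edge and that of replicate 1 before it.

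**Figure D2:**
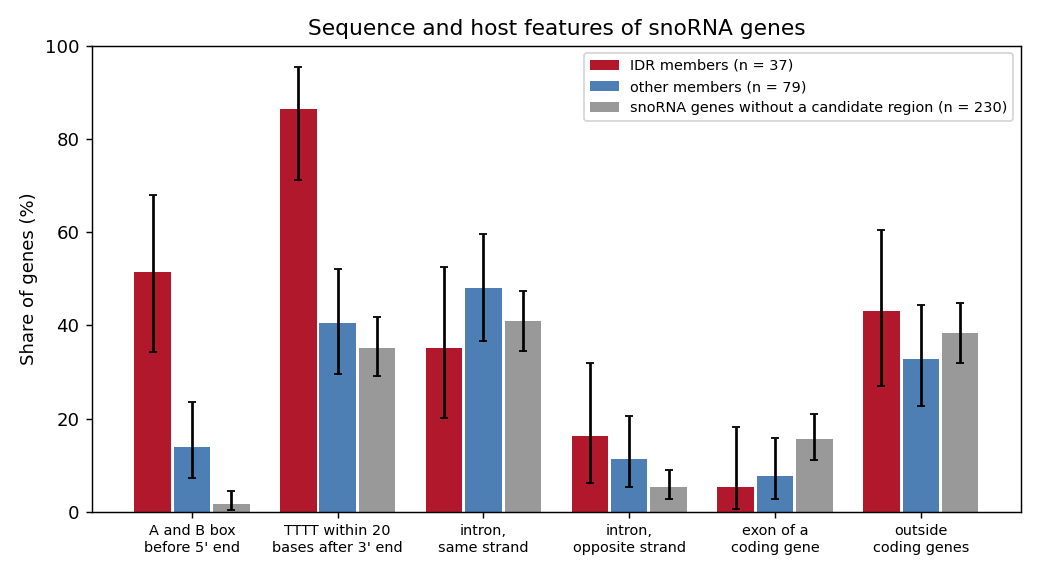
Share of genes (%) with each sequence or host feature in 37 IDR members, 79 other members and 230 snoRNA genes without a candidate region; bars are shares and error bars exact 95% intervals. The box pair (51.4%, 13.9%, 1.74%) separates the groups more than the host features do. The T run (86.5%, 40.5%, 35.2%) sets the IDR members apart, while the other members and the genes without a candidate region are close to each other. In a 50-base window the T run shares come closer (94.6%, 74.7%, 63.9%).

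Signal levels chose the members and the IDR set, so they are given as a description. IDR membership was found for 37 of 116 members, beside 0.867% of all pooled candidate regions. Pooled signals ran from 62.9 to 271 in the IDR members, with a median of 105, and from 24.7 to 60.4 in the other members, with a median of 32.6. All pooled candidates had a median of 30.6 and a lowest value of 24.6, so the other members were near the middle of the list. The median rank among 30000 was 93 for IDR members and 11580 for other members. The groups meet at T08B2.13, the weakest IDR member with 62.9, and T24H7.6, the strongest other member with 60.4. Among IDR members the median pooled signal was 118 with the pair and 90.5 without it.

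**Figure D3:**
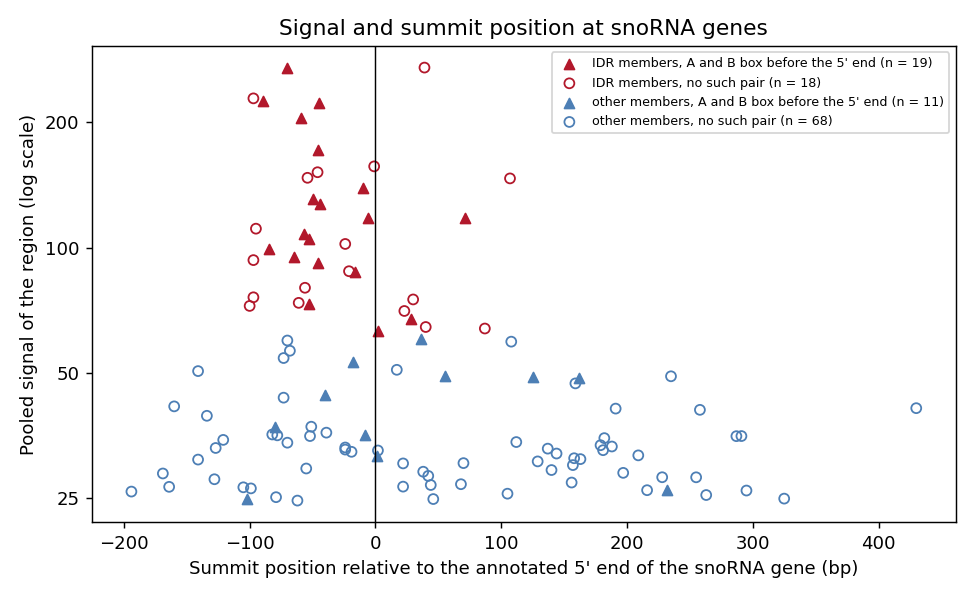
Pooled signal (log scale) against the position of the pooled summit in bp from the annotated 5' end of 116 snoRNA genes; filled triangles have the A and B box before the 5' end and open circles do not. The IDR members (red, 62.9 to 271) crowd into the 100 bp before the 5' end, and the other members (blue, 24.7 to 60.4) spread over the whole range.

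The summit lay before the 5' end in 28 of 37 IDR members (75.7%, 58.8 to 88.2), inside the gene in 8 and after it in 1. All 28 were within 100 bp of the 5' end, with a median of 53.5 bp before it. Among the other members 33 of 79 (41.8%) were before the 5' end, 24 inside and 22 after. The replicates gave the same picture for the IDR members, with 28 of 37 before the 5' end in replicate 1 and 26 of 37 (70.3%) in replicate 2. tRNA genes with a candidate region, whose boxes are inside the gene, had 35.4% of 302 summits before, 34.8% inside and 29.8% after. These 302 genes were taken whether in the IDR set or not, and 85 had an IDR peak. They are thus unlike the IDR members in strength, and its part in the summit positions was not tested. In IDR members with the pair, the pooled summit was at or between the starts of the boxes in 12 of 19 and before the 5' end in 16. Replicate summits were not always between the boxes where the pooled one was. At T02E1.9, with its A box 64 bases before the 5' end, the summit was 46 bp before it in replicate 1 and 128 bp in replicate 2.

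Short genes were more common among the IDR members. Their median length was 75 bases, beside 129 in other members and 133 in genes without a candidate. Of the 79 other members, 25 had 110 bases or less. Of the 37 IDR members, 23 were 62 to 95 bases long, the size of C/D box snoRNAs, and 14 were 126 to 196 bases long, the size of H/ACA snoRNAs. The summit was before the 5' end in 20 of the 23 short genes and 8 of the 14 long ones, and the pair was found at 13 and 6 of them. The short genes had a median pooled signal of 127 and the long ones 75.5. By length and end letters, 12 IDR members were of the C/D type (32.4%), 10 of the H/ACA type (27%) and 15 of neither. The C/D share was 17.7% in other members and 9.57% in genes without a candidate, and the H/ACA share 20.3% and 12.6%. Length is part of the type, so the types are not separate from the split by length. Among IDR members the pair was found at 9 of the 12 C/D genes and 5 of the 10 H/ACA genes. The typing is weak, since 70.2% of all snoRNA genes were of neither type. That share was 40.5% in IDR members, 62% in other members and 77.8% in genes without a candidate. The groups compared for the pair and the T run thus also differed in gene type, and its part in those shares was not tested. The boxes before the gene thus occurred with both classes.

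C51F7.3 and its neighbour C51F7.4 shared the strongest summit, with a pooled signal of 270.7, 132.3 in replicate 1 and 141.2 in replicate 2. C51F7.3 is a C/D box gene in an intron of frm-7, a gene of the FERM domain family, on the same strand, and the summit lay 70 bp before it. C51F7.4, annotated just upstream over an exon of frm-7, had the summit at position 39, inside the gene. The boxes of C51F7.3 therefore lie within C51F7.4, which has no pair or T run of its own, so this signal cannot be assigned to 1 of the 2 genes. ZK265.10 followed with 228.3, 119.4 in replicate 1 and 103.3 in replicate 2, and its summit was 97 bp before a gene that stands outside protein-coding genes. It has an A box before it but no B box in the searched window.

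T03F7.8 lies in an intron of cutl-18 on the strand opposite to its host. Its pooled signal was 222.7, with 105.6 in replicate 1 and 116.1 in replicate 2, and the summit was 45 bp before the 5' end, between the boxes. W03C9.9, outside protein-coding genes, had 204.4, with 95.5 in replicate 1 and 108.7 in replicate 2, and a summit at 59 bp before. Y43F8C.22, an H/ACA gene in an intron of Y43F8C.7, had 171.7 and was higher in replicate 1, with 100.7 against 70.7 in replicate 2. In all 3 genes the pooled summit was between the boxes. The replicates did not always place it there. For W03C9.9 the replicate 1 summit was 98 bp before the 5' end, and its A box starts 72 bases before. For Y43F8C.22 the replicate 2 summit was 61 bp before, and its A box starts 53 bases before.

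Below these, the region of C27H5.9, opposite its host pdl-1, had a pooled signal of 151.7, and that of H09I01.2, outside protein-coding genes, 147.1. ZK484.9, opposite its host haf-9, an ABC transporter gene, had 138.8 with the summit 10 bp before the gene. ZK643.9, an H/ACA gene outside protein-coding genes, had 130.6, with 72.5 in replicate 1 and 59.8 in replicate 2, and a summit 50 bp before. M106.6 had 127.2 in an intron of mix-1, which encodes a condensin subunit. C04G6.12 had 117.8, with 58.2 in replicate 1 and 57.4 in replicate 2, in an intron of mpk-2, a MAP kinase gene on the opposite strand. The remaining genes of the first 20 by signal were Y38F2AR.14 (117.6), F38E11.14 (111.0) in an intron of cng-3, C05D2.15 (107.5) in an intron of madf-11, F32E10.10 (104.7) outside protein-coding genes and D1046.6 (102.0) in an intron of cfim-2, a gene for an mRNA cleavage factor subunit. Y38F2AR.14 differed from the others in that it had 2 qualifying summits, the stronger of them 71 bp inside the gene although its boxes lie before it.

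B0334.12 was the 1 IDR member with its summit beyond the 3' end, at position 107 from the annotated 5' end of a gene of 70 bases. Its pooled signal was 146.6, with 81.8 in replicate 1 and 65.7 in replicate 2, and the summits were at 112 in replicate 1 and 106 in replicate 2. The gene is annotated on the plus strand, opposite its host twk-5, a potassium channel gene, and neither the pair nor TTTT was found on that strand. On the opposite strand a pair was found, 62 and 18 bases before the end that would be 5' there, and the summit lay between the boxes. Of all 346 snoRNA genes, 1 held a pair in this window on the opposite strand. The line is that minus strand, chrII:11484663-11484822 in RefSeq's WBcel235 genome, from 70 bases before the gene to 20 after, with the A box, the B box, CTGA and the T run in capitals.
B0334.12: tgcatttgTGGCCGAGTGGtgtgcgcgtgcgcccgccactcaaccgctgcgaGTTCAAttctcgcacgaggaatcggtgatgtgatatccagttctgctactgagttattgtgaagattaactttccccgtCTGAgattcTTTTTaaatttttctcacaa

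Read on the minus strand, B0334.12 has the order of T06C12.16, with both boxes before the gene, CTGA near its end and a T run after it. Transcript data were not analysed here, so the strand of transcription was not measured.

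A pair was not found at 18 IDR members. An A box alone was found before 7 of them, among them ZK265.10, C27H5.9 and F38E11.14, and a B box word alone before Y23H5B.10 and T27A3.9. C27H6.5 held both, but not in the order and distance of a pair. Neither box was found at 8 (C51F7.4, ZK994.7, H09I01.2, B0334.12, D1046.6, C46C2.8, Y53F4B.48 and W06H8.17). ZK994.7, a C/D box gene in an intron of pxn-1, a peroxidasin gene, had a pooled signal of 156.7, with 80.7 in replicate 1 and 91.1 in replicate 2. D1046.6, an H/ACA gene, had 102.0, with 63.2 in replicate 1 and 41.3 in replicate 2. Both have a T run after the gene, and they are shown as strong members without the pair, chosen after their values were seen. The windows are chrV:8500479-8500588 and chrIV:8927165-8927274 on the plus strand of RefSeq's WBcel235 genome, as above, with no capitals because neither pattern matched.
ZK994.7: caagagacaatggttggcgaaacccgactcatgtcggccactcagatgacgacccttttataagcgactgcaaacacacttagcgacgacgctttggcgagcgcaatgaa
D1046.6: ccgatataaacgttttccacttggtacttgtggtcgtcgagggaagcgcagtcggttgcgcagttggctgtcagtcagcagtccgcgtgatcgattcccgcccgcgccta

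A missing match means only that the searched letters are not in the window. Of the 18 IDR members without the pair, 14 had TTTT after the gene. The 4 with neither feature were C51F7.4, B0334.12, K02C4.8 and W06H8.17. In C51F7.4 a pair lies inside the gene, before its neighbour C51F7.3, and at B0334.12 a pair was found on the opposite strand. W06H8.17, of 196 bases, and K02C4.8 were among the weakest IDR members, with pooled signals of 63.9 and 64.4 and summits inside the gene.

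The 5 words of 6 bases whose share in the 100 bases before the gene differed most between IDR members and snoRNA genes without a candidate include both common forms of the B box word. GTTCGA was found before 29.7% of IDR members, 12.7% of other members, 1.3% of genes without a candidate and 1.43% of protein-coding genes. For GTTCAA the shares were 27%, 12.7%, 4.35% and 4.36%. GGTTCG, which overlaps GTTCGA, was found at 24.3%, 10.1%, 2.17% and 0.431%. GGCGCA (24.3%, 10.1%, 3.48% and 0.746%) and GCGCAG (21.6%, 12.7%, 1.74% and 0.581%) overlap each other and occur in A boxes such as that of W03C9.9. All were counted on the gene's strand, anywhere in the window, and the hits outside a called box were not set apart. The median GC content of these 100 bases was 55% in IDR members, 48% in other members and 42% in genes without a candidate, and its part in the word shares was not tested. The Drosophila Odd-skipped word ACAGTAGC was found before 0 of the snoRNA genes in each group and 0.035% of protein-coding genes, and nothing about ODD-2 follows from that.

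The same search around summits instead of genes gave like shares. An A and B box pair on either strand within 100 bp of the summit was found at 19 of 36 IDR peaks of members (52.8%, 35.5 to 69.6) and 7 of 78 other regions of members (8.97%). It was found at 179 of 293 regions near a tRNA gene (61.1%), at 3 of 123 IDR peaks near neither kind of gene (2.44%) and at 151 of 29442 other regions near neither (0.513%). IDR peaks of snoRNA genes were thus near the share of tRNA regions in this feature and far from the rest of the list. The sets are unlike in strength, since the 293 tRNA regions were taken whether in the IDR set or not. The other regions of members, at 8.97%, were far below the tRNA regions. An annotated noncoding RNA gene or pseudogene overlapped the 100 bases before 13 of 37 IDR members, 8 of 79 other members and 21 of 230 genes without a candidate.

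Host genes separated the groups less than the box pair did. An intron of a protein-coding gene on the same strand held 13 of 37 IDR members (35.1%), 38 of 79 other members (48.1%) and 94 of 230 genes without a candidate (40.9%), with overlapping intervals. Introns on the opposite strand held 6 (16.2%), 9 (11.4%) and 12 (5.22%) of the same groups. Outside protein-coding genes lay 16 (43.2%), 26 (32.9%) and 88 (38.3%). Within the IDR members the pair was found at 8 of 13 in same-strand introns, 4 of 6 in opposite-strand introns and 7 of 16 outside genes, so it was not limited to free-standing genes. All 13 in same-strand introns had TTTT after the 3' end. Ribosomal protein genes, which host many snoRNAs in animals, hosted 0 of 37 IDR members, 6 of 79 other members and 13 of 230 genes without a candidate. The 6 (in rps-29, rps-4, rpl-7, rps-13 and rps-12) had pooled signals of 26.4 to 35.2 and no pair. B0412.6 and B0412.7 of rps-29 shared 1 summit, 291 bp from the 5' end of B0412.6 and 52 bp before that of B0412.7.

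Summits within 1000 bp before to 200 bp after a protein-coding 5' end made up 9 of 37 IDR members (24.3%) and 21 of 79 other members (26.6%), beside 24.6% of the 29976 nuclear pooled candidates. snoRNA regions were thus at protein-coding promoters at about the share of the whole list. By chromosome, IDR members were 11 of the 55 snoRNA genes on V, 8 of 59 on IV, 8 of 71 on II, 7 of 74 on I, 3 of 54 on III and 0 of 33 on X.

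Both replicates were compared by applying the distance rule to each file. A candidate summit was found in both for all 37 IDR members and for 39 of 79 other members (49.4%, 37.9 to 60.9). Of the rest, 18 were found in replicate 1 alone, 17 in replicate 2 alone and 5 in neither (T25C12.12, T23D8.13, D1054.17, C50C3.13 and T09B9.10, with pooled signals of 24.7 to 28.0). With a summit required within 100 bp of the pooled one, 36 of 37 IDR members and 28 of 79 other members (35.4%, 25 to 47) were found in both, beside 30.1% of all pooled candidates. The other members were therefore near the background of the list, and T08B2.13 was the IDR member that missed. The IDR set was built from both replicates, so nothing is read from its share.

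Signals of IDR members ran from 18.6 to 132 in replicate 1, with a median of 55.2, and from 18.1 to 141 in replicate 2, with a median of 57.4. The median ratio of replicate 1 to replicate 2 was 0.937, and 28 of 37 were within 1.5 times of each other. The scales of the files were not adjusted to each other. F55A11.10 departed most in one direction, with 62.0 in replicate 1 and 18.1 in replicate 2. T27A3.9 did so in the other, with 18.6 in replicate 1 and 50.1 in replicate 2. The other members found in each file had medians of 19.4 in replicate 1 and 18.9 in replicate 2, a little over the medians of all candidates, 16.8 and 16.1.

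**Figure D4:**
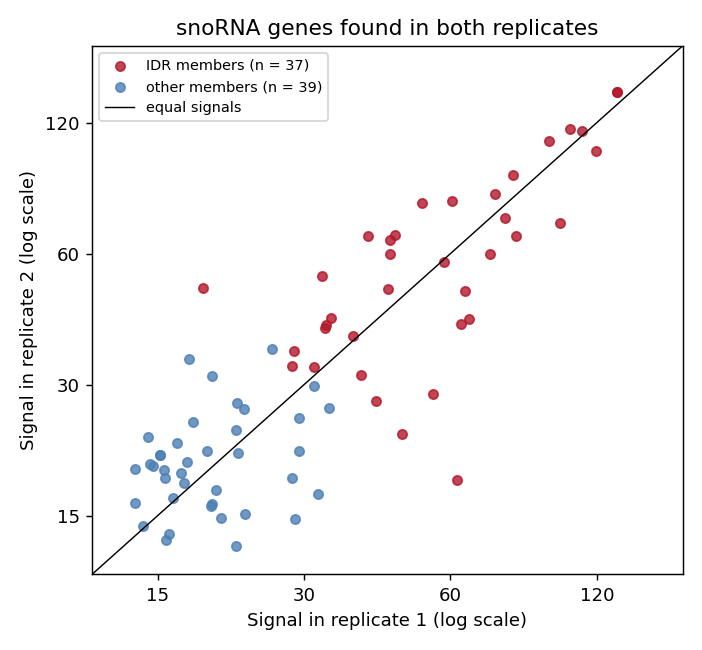
Signal in replicate 1 against signal in replicate 2 (both log scales) for the 76 members with a summit in both files, 37 IDR members and 39 other members; the line marks equal signals. IDR members run along the line, with F55A11.10 (62.0 and 18.1) and T27A3.9 (18.6 and 50.1) farthest from it.

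Other members with the pair were 11, with pooled signals of 24.9 to 60.4 and a median of 44.3, beside 32.1 for the 68 without it. T24H7.6 (60.4), Y75B12B.12 (53.2), C41C4.11 (49.2), K09E9.5 (48.8) and R12E2.17 (48.6) were the strongest of them, and all 11 had TTTT after the gene. Their boxes stood where those of the IDR members did, with median starts 59 and 14 bases before the 5' end. Their summits did not, since 3 of 11 were between the boxes and 5 before the 5' end. K09E9.5 lies on X. T04A8.17 (59.8) and Y71F9AM.7 (59.4) were the strongest other members without the pair.

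Signal near short genes can also be counted by gene class, though longer genes catch more summits. A candidate region was found at 14% of 129 snRNA genes, 18.8% of 261 miRNA genes, 12.5% of piRNA genes and 0 of 20 rRNA genes. The share was 40.7% of 194 lincRNA genes, 34% of 100 antisense RNA genes and 28.1% of pseudogenes, which are longer, with 11.7% of the nuclear genome within 200 bp of a qualifying summit. IDR peaks were found at 10.7% of snoRNA genes, 2 of 129 snRNA genes, 4 of 261 miRNA genes and 0 of the lincRNA and antisense RNA genes. Without the tRNA filter, 302 of 612 tRNA genes (49.3%) had a candidate and 85 (13.9%) an IDR peak. Protein-coding genes, with a median length of 2027 bases against 130 for snoRNA genes, had a candidate in 56.6% and an IDR peak in 0.611%. At the 200 bp limit, Y53F4B.47 (169 bp, pooled signal 28.6), F46F11.12 (171 bp, 24.9) and Y38E10A.32 (194 bp, 25.9) were the last inside, and E01A2.9 (216 bp, 29.4), Y11D7A.22 (217 bp, 33.9) and F55H12.9 (233 bp, 41.4) the first outside.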

How the data were processed

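Region bounds, summits and the signal value of each region (narrowPeak column 7) were used as the authors deposited them on build ce11, for replicate 1, replicate 2, the pooled reads and the IDR set. The signal was computed by the authors against a control, per the deposited file list. Its scale, the aligner and the peak caller were not given in the sources used here. Summit offsets, another column of the deposited files, place each summit. The ce10 files were not used. Genes came from Ensembl release 115 and sequence from the RefSeq genome, both WBcel235, which is ce11.

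Each member was given its strongest qualifying summit. The A box, the B box (25 to 90 bases after the A box start) and single words were searched on the gene's strand, from 200 bases before the 5' end to 10 inside for the pair. Where several pairs matched, the B box nearest the gene was taken. The C/D type needed CTGA in the last 15 bases of a gene of up to 110 bases, with no C box required. The H/ACA type needed ACA 3 bases from the end of a gene of over 110 bases. Placement and box search were tested on simulated data. Python 3.11.15, numpy 2.4.6, pandas 2.3.3, scipy 1.17.1 and matplotlib 3.10.9 were used.

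Members and lists were chosen with earlier results of these data known. Named genes were the 20 of highest pooled signal, those sharing a summit among them, and the 3 on each side of the 200 bp limit, and named words the 5 of largest difference in share. The box patterns, and genes named for lacking or holding a box, for a replicate or for a host, were chosen after their values were seen. Alternatives were other distance limits, no tRNA filter, the strongest 5000 candidates, each replicate alone, and other replicate, box and T run windows.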

Additional observations from a re-analysis of the deposited data

How the results depend on the processing

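With summits required inside the gene there were 33 members and 8 IDR members, 0% by construction upstream, 45.5% in introns and 39.4% found in both replicates. With the strongest 5000 candidates there were 57 members, of which 64.9% had the summit upstream, 98.2% were found in both replicates and 43.9% had the pair. A limit of 500 bp gave 17.6% with the pair, because members at greater distance were added, and the B box word GTTCGA alone gave 15.5%. By group, GTTCGA alone gave 29.7% of IDR members, 8.86% of other members and 0.87% of genes without a candidate. Matching of replicate summits within 100 bp gave 55.2% found in both and within 50 bp 47.4%. TTTT within 50 bases was found at 81% of members (94.6% of IDR members, 74.7% of other members, 63.9% of genes without a candidate), so the contrast for the T run depends on the short window. Leaving out either replicate, that is, using the other's candidates alone, gave 113 to 113 members, 37 to 37 IDR members, 51.3% to 52.2% upstream, 54% to 57.5% in introns and 23% to 25.7% with the pair. Each replicate file lists as many candidate regions as the pooled file, so a like count does not show that the same genes were found. Of the 116 members, 94 had a summit in replicate 1 and 93 in replicate 2. Each set of 113 therefore held genes outside the 116. The share found in both replicates has no value with 1 replicate left out. The count of 37 IDR members is no check there, because the IDR set was built from both replicates and each IDR member had a summit in each file. No paired analysis was possible because there is 1 group. Of the 55 alternative values, 14 moved and 41 did not. The 41 include member counts of 94 at a limit of 100 bp and 170 at 500 bp, against 116. A value counted as not moved is therefore not an unchanged one. The pair under every setting was added after seeing the data, its GTTCGA and 100-base forms included. So was the B box word searched to 10 bases inside the gene. Unknown depth and 2 replicates limit what the signals show.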

Other observations

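Outside snoRNA and tRNA genes, 3 IDR peaks held an A and B box pair within 100 bp of the summit. They lie at chrIII:1601430-1601759 near sms-3 (pooled signal 79.9), chrIII:11371316-11371645 near tba-7 (78.6), where noncoding RNA genes are annotated, and chrV:53311-53640 near srt-52 (73.7). They were named after their values were seen.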
